A study of Mus musculus with 9 samples.

Results

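The 40 genes described here encode the enzymes of glycolysis, of lactate and pyruvate metabolism and of glycogen synthesis and breakdown. They were taken by symbol from a written list and all 40 were found among the 18272 genes of the table. All 40 also passed the low-count filter, along with 13960 genes in total. Their transcripts were measured by RNA sequencing in the tibia of female C57BL/6J mice, with 1 library per mouse and 3 mice per group. The NGT mice had normal glucose tolerance and were injected with the citrate vehicle in place of streptozotocin. The T1D mice had type 1 diabetes induced with streptozotocin, a toxin of insulin-producing cells, and received saline. The Lira mice were diabetic by the same route and received liraglutide, a GLP-1 receptor agonist, for 8 weeks according to the labels of mice 1 and 2 and for 9 weeks according to the label of mouse 3. T1D and Lira mice thus shared the streptozotocin treatment, a chemical model of insulin deficiency, and the labels give no age.

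Glycolysis splits glucose into pyruvate in the cytosol and yields ATP without oxygen, and pyruvate then becomes lactate or enters mitochondria through the pyruvate dehydrogenase complex. Glycogen is the stored form of glucose, built by glycogen synthase and taken apart by glycogen phosphorylase. Several steps have a form typical of skeletal muscle and another form common in other tissues, including marrow and bone cells, and fast-twitch muscle carries very large amounts of most of these enzymes. Insulin is known to favour glucose phosphorylation by hexokinase 2 and glycogen storage in muscle.

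The tissue itself was checked before the comparisons. Bones were described as cleaned of muscle, yet 23 of 23 skeletal muscle markers were present in every library and together held 17.7 to 26.2% of all counts in NGT, 14.6 to 26.0% in T1D and 17.8 to 23.4% in Lira mice. The 13 markers of osteoblasts and osteocytes held 0.019 to 0.177% in NGT, 0.081 to 0.728% in T1D and 0.039 to 0.157% in Lira mice. In NGT mouse 2 the bone markers Bglap, Sp7, Mepe and Sost and the neutrophil markers Mpo, Retnlg and Mmp8 had a count of 0. Erythroid markers ranged from 0.035% in NGT mouse 2 to 3.27% in a Lira mouse, and neutrophil markers from 0.001 to 0.629%. Libraries held 13086373 to 16528394 counts. In bulk tissue, fewer cells of a type and less RNA per cell cannot be told apart.

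As examples of the sequence upstream of the genes, the promoter windows of the 2 most abundant muscle isozymes and the 2 most abundant other isozymes are given (RefSeq, GRCm38.p6, 250 bases before and 50 after the start of the transcript, plus strand). Of these, Eno3 and Eno1 are forms of the same enzyme. Capitals mark any match, on either strand, to CAGCTG (an E-box form bound by myogenic factors), ACGTG (the core of the hypoxia response element), TAAAAATA (a form of the MEF2 site) or TATAAA (the box of that name in core promoters). None of these strings contains another. Pygm encodes muscle glycogen phosphorylase and its window lies at chr19:6384158-6384457. Eno3, muscle enolase, lies at chr11:70656926-70657225, Eno1, the widespread enolase, at chr4:150236458-150236757 for the first of its 3 windows, and Pgam1, the widespread phosphoglycerate mutase, at chr19:41911621-41911920.
Pygm: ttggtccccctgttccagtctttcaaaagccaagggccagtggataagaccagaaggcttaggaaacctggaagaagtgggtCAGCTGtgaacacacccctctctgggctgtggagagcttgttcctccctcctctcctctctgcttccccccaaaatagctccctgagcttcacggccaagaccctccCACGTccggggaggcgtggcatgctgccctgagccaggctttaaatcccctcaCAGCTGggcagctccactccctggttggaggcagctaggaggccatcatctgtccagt
Eno3: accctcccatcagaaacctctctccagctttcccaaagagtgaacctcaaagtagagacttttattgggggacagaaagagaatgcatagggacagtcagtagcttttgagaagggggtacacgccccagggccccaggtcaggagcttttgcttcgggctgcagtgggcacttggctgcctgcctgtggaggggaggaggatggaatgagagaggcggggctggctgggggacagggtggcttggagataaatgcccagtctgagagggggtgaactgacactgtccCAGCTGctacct
Eno1: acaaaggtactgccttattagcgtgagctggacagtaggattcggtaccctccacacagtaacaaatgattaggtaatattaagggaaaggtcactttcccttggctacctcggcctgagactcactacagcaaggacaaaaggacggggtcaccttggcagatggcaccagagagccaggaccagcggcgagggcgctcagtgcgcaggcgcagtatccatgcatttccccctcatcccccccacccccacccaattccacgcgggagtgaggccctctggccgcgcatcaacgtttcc
Pgam1: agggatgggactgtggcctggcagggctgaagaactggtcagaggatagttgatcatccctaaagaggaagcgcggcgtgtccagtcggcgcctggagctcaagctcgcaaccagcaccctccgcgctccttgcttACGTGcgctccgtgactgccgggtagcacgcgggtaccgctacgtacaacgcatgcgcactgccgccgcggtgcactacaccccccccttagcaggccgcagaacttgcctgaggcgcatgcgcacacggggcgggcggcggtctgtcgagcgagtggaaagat
Pygm held CAGCTG at positions -168 and -8 and ACGTG at -61, counted from 1 at the start site, with bases before it negative. Eno3 held CAGCTG at 39, Pgam1 held ACGTG at -114, and none of the 4 strings was in the Eno1 window. Promoter windows matched 39 of the 40 genes, 56 windows in all, since a gene can have several starts. CAGCTG was in 6 of 11 windows of muscle isozymes, in 0 of 12 windows of other isozymes and in 16.3% of all 32851 mouse windows. The 6 windows belonged to Pygm, Eno3, Pgam2, Fbp2, Phka1 and Ppp1r3a, while none of the 4 windows of Pfkm held the string. ACGTG was in 4 of 11, 5 of 12 and 19.6%. No difference in motifs between the lists was tested. Over all 56 windows of the list, 15 held CAGCTG, 25 ACGTG, 1 TAAAAATA and 3 TATAAA, where TAAAAATA was in 2.72% and TATAAA in 13.6% of all windows. These are letter matches, not measured binding.

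Levels between genes were compared in FPKM (fragments per kilobase of transcript, relative to library depth), which corrects for gene length. The 40 genes spanned from Aldoa, aldolase A, with a mean of 11204 FPKM, to Aldoc, the brain aldolase, with 0.25 FPKM. Of the 40, 8 exceeded 1000 FPKM on average, 23 exceeded 100 FPKM and 7 stayed under 10 FPKM. Aldoa measured 9607, 11655 and 14096 FPKM in the NGT mice 1 to 3, 8791, 11281 and 12588 in T1D and 11981, 12041 and 8799 in Lira mice. Gapdh, the dehydrogenase that makes the NADH of glycolysis and a common reference gene, measured 8663, 9033 and 11205 FPKM in NGT, 8083, 8931 and 11946 in T1D and 10115, 10227 and 8106 in Lira mice. For both genes the lowest library was T1D mouse 1 and all groups overlapped. Aldoa and Gapdh together took 2.28 to 3.44% of all counts of a library.

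The other steps followed at lower levels, again with the muscle form in front. Pygm measured 2154, 3075 and 3472 FPKM in NGT, 1770, 2527 and 3358 in T1D and 3414, 2974 and 2284 in Lira mice. Eno3 measured 2196, 2644 and 3227 FPKM in NGT, 1627, 2563 and 3199 in T1D and 2562, 2865 and 2214 in Lira mice. Pgam2, the muscle phosphoglycerate mutase, measured 1387, 1339 and 2018 FPKM in NGT, 1216, 1306 and 1421 in T1D and 1088, 1629 and 1285 in Lira mice. In Pygm and Eno3 the lowest mouse of each group was the one with the least muscle marker RNA, namely NGT 1, T1D 1 and Lira 3.
Pkm, pyruvate kinase, the last step of glycolysis, measured 1234, 1404 and 1601 FPKM in NGT, 1075, 1377 and 1286 in T1D and 1435, 1468 and 1214 in Lira mice. Ldha, which turns pyruvate into lactate, measured 1199, 1318 and 1782 FPKM in NGT, 1055, 1345 and 1824 in T1D and 1296, 1393 and 1220 in Lira mice. Pfkm, the muscle phosphofructokinase and the committed step of glycolysis, measured 964, 1221 and 1218 FPKM in NGT, 728, 1164 and 827 in T1D and 1062, 1236 and 846 in Lira mice. T1D mouse 1 was the lowest of the 9 libraries for all 3 genes.
Tpi1, triose phosphate isomerase, measured 787, 858 and 1067 FPKM in NGT, 650, 1078 and 1178 in T1D and 882, 1013 and 827 in Lira mice. Pgk1, an ATP-making step, measured 383, 455 and 553 FPKM in NGT, 336, 495 and 690 in T1D and 480, 429 and 390 in Lira mice. In both genes T1D mouse 1 was lowest and T1D mouse 3 highest, so that the diabetic mice spanned the whole range. The 10 most abundant genes, which these are, overlapped between the groups in every comparison, and the ranges over the 9 mice of neighbours in their order overlapped except at the step from Gapdh to Pygm.

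**Figure D1:**
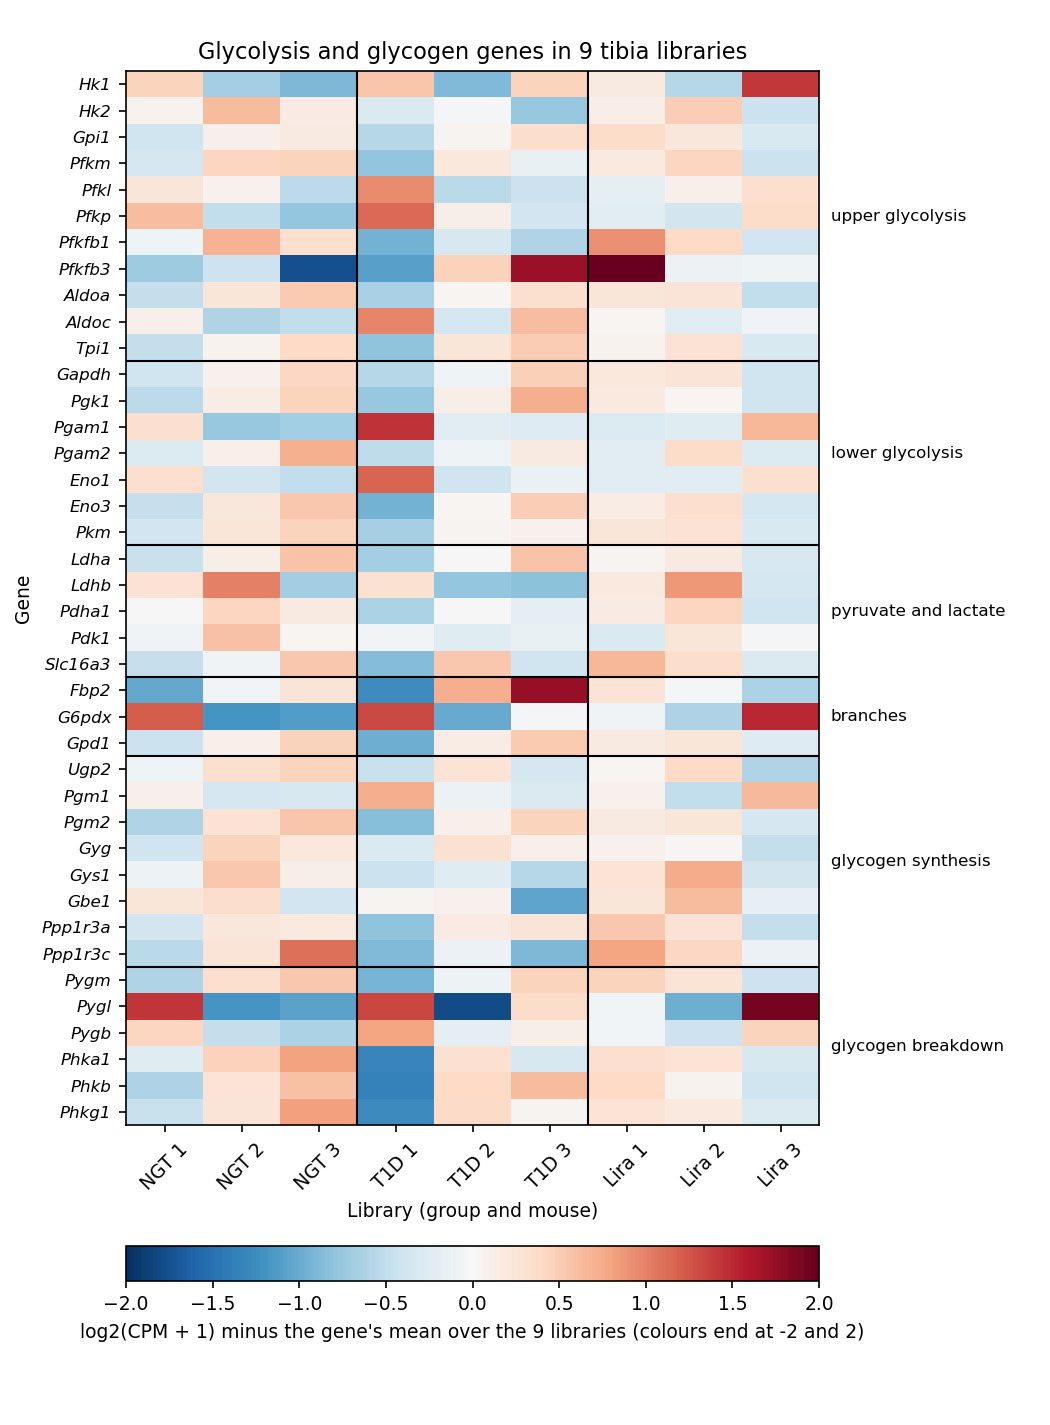
Each row is 1 of the 40 genes, ordered by role, and each column 1 library; colour gives log2(CPM + 1) minus the gene's mean over the 9 libraries, with the colour scale ending at -2 and 2. T1D mouse 1 is blue for most muscle-type genes and red for Pgam1, Eno1, Pfkl and Pfkp, while T1D mouse 3 and Lira mouse 1 stand out in Pfkfb3.

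T1D mouse 1 had the lowest FPKM of the 9 libraries for 18 of 40 genes, 7 of the 8 muscle isozymes among them, and the highest for 7 genes, of which 6 were among the 8 other isozymes. The 40 genes together held 5.46, 6.39 and 7.55% of the counts in NGT, 4.72, 6.16 and 6.99% in T1D and 6.72, 6.72 and 5.22% in Lira mice. The group means were 6.47% ± 1.05 (SD, n = 3), 5.96% ± 1.15 and 6.22% ± 0.87, and the groups overlapped. Replicate numbers were taken to pair NGT and T1D mice from correlations in these same data, as the labels state no pairing. Within these numbers, the share in the T1D mouse was 0.865, 0.964 and 0.926 times that in the NGT mouse at numbers 1 to 3. For the 8 muscle isozymes it was 0.775, 0.911 and 0.884 times, and for the 8 other isozymes 1.66, 1.15 and 1.55 times. Each list thus moved 1 way in all 3 pairs, a number of pairs at which an exact two-sided sign-flip test allows no p under 0.25. Within each group the muscle marker sums put the mice in the same order, with 17.7, 23.7 and 26.2% in NGT, 14.6, 22.96 and 26.0% in T1D and 23.4, 23.4 and 17.8% in Lira mice. Per 100 counts of the muscle markers, the 40 genes had 26.8 to 32.4 counts in all 9 libraries, the highest value in T1D mouse 1. The part of muscle content in the differences between mice was not tested beyond a fit with a muscle covariate. This covariate was the mean log2 CPM of the 23 muscle markers, each with equal weight, and not their share of counts. The mean and the share order the libraries differently. NGT mouse 3 had the highest share but a mean log2(CPM + 1) of 11.89, below the 11.93 of Lira mouse 3. T1D mouse 1 had the lowest share but a mean of 11.70, above the 11.60 of NGT mouse 1. Medians and some genes from this fit are given with the comparisons.

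**Figure D2:**
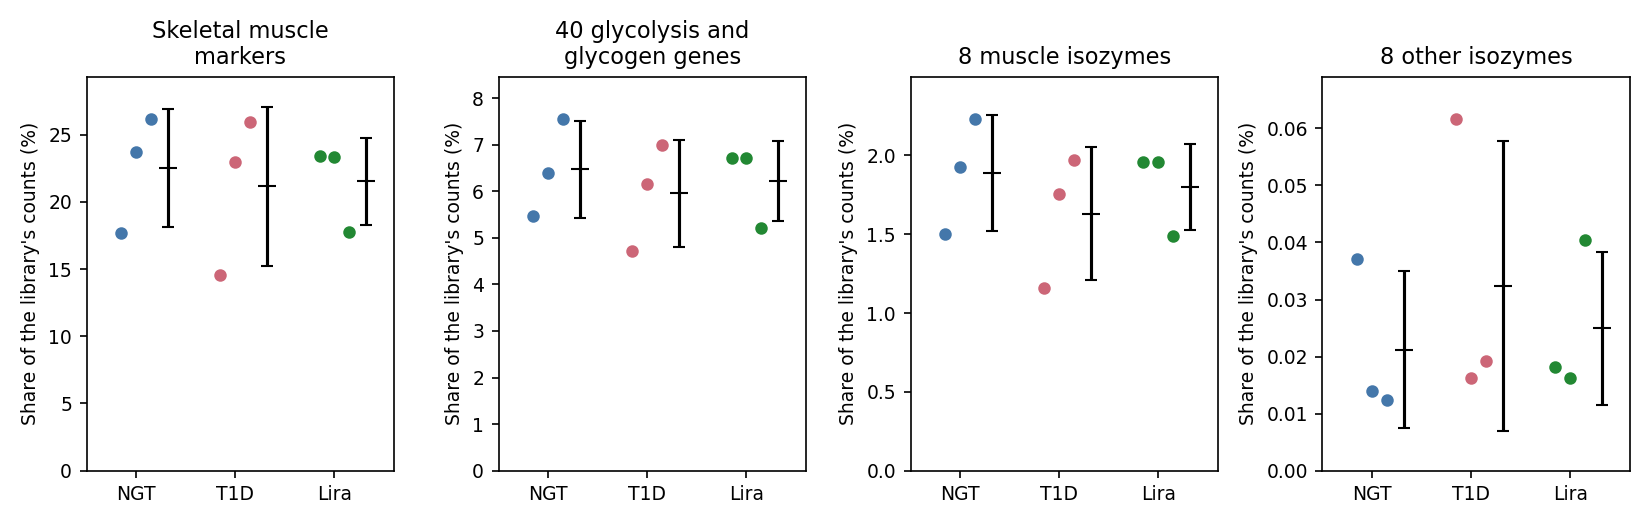
Share of each library's counts (%) taken by the 23 muscle markers, the 40 glycolysis and glycogen genes, 8 muscle isozymes and 8 other isozymes; points are mice 1 to 3 from left to right and bars the mean and SD of 3 mice. T1D mouse 1 is lowest for the first 3 lists and highest, at 0.062%, for the other isozymes, and the groups overlap in each panel.

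The muscle and the widespread forms of an enzyme differed most between libraries where they were set against each other. Eno1 measured 99.2, 44.8 and 40.6 FPKM in NGT, 183, 49.2 and 53.7 in T1D and 51.5, 51.0 and 90.8 in Lira mice. Eno3 exceeded it 22.1, 59.0 and 79.4 times in NGT, 8.91, 52.1 and 59.6 times in T1D and 49.7, 56.2 and 24.4 times in Lira mice. The lowest ratio of each group was thus in NGT 1, T1D 1 and Lira 3.
Pgam1 measured 24.6, 8.39 and 8.75 FPKM in NGT, 56.4, 13.8 and 12.2 in T1D and 12.3, 12.4 and 29.2 in Lira mice. Pgam2 exceeded it 56.4, 160 and 231 times in NGT, 21.6, 94.5 and 117 times in T1D and 88.5, 131 and 44.0 times in Lira mice. Mice 2 and 3 of the T1D group had lower ratios than mice 2 and 3 of the NGT group, while NGT mouse 1 lay below them.
Pygl, the liver phosphorylase that marrow leukocytes also carry, measured 16.2, 1.71 and 1.85 FPKM in NGT, 15.7, 1.13 and 5.69 in T1D and 4.20, 2.04 and 21.2 in Lira mice. Pygb, the brain phosphorylase, measured 4.35, 1.61 and 1.41 FPKM in NGT, 5.82, 2.22 and 2.59 in T1D and 2.29, 1.72 and 4.10 in Lira mice. Pygm exceeded Pygl 108 to 2237 times and Pygb 304 to 2463 times.
The platelet and liver phosphofructokinases stood in the same relation to Pfkm. Pfkl measured 5.99, 3.91 and 2.53 FPKM in NGT, 10.5, 2.66 and 2.71 in T1D and 3.25, 4.09 and 6.13 in Lira mice. Pfkp measured 7.92, 2.72 and 1.75 FPKM in NGT, 14.0, 4.14 and 2.89 in T1D and 3.08, 2.79 and 6.08 in Lira mice. Pfkm exceeded Pfkl 69.1 to 481 times and Pfkp 52.0 to 696 times, with the extremes in T1D 1 and NGT 3 for both. In 6 of the 9 pairs the 3 lowest ratios were those of the 3 libraries with the least muscle marker RNA.

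Hexokinase and lactate dehydrogenase were the pairs with the narrowest gaps. Hk1, the widespread hexokinase, measured 10.1, 3.37 and 2.75 FPKM in NGT, 11.3, 3.16 and 7.61 in T1D and 6.41, 3.64 and 18.6 in Lira mice. Hk2 exceeded it 1.76 to 16.4 times, least in Lira mouse 3 and most in NGT mouse 2. Ldhb, the form of lactate dehydrogenase typical of heart and slow muscle, measured 243, 299.5 and 89.8 FPKM in NGT, 255, 95.9 and 85.0 in T1D and 175, 275 and 145 in Lira mice. Ldha exceeded Ldhb 4.40 to 19.9 times in NGT, 4.14 to 21.4 times in T1D and 5.07 to 8.40 times in Lira mice, so that 1 NGT and 2 T1D mice had ratios above all others. Aldoc was listed at 0 in NGT mouse 2, at 0.28 and 0.03 FPKM in NGT mice 1 and 3, at 0.93, 0.07 and 0.45 FPKM in T1D and at 0.19, 0.10 and 0.19 FPKM in Lira mice. The limit set by a count of 0 is 3 counts, which is 0.18 to 0.23 CPM depending on the library, and Aldoc had 0 to 37 counts, 4 or fewer of them in 4 of the 9 mice. The 9 ratios were compared between the 3 pairs of groups by two-sided exact permutation over mice, with a pseudocount of 0.1 for Aldoa/Aldoc only. The exact p ranged from 0.2 to 1 over 27 tests, and from 0.771 to 1 after Benjamini-Hochberg adjustment over the pairs of a comparison, where 3 against 3 mice allow no p under 0.1. Within the replicate numbers that were taken to pair NGT and T1D mice, 6 of the 9 ratios were lower in the T1D mouse at all 3 numbers. The other 3 had mixed signs. The log2 ratio of Pygm to Pygb differed by -0.70, -0.75 and -0.93 at numbers 1 to 3, that of Pfkm to Pfkp by -1.23, -0.67 and -1.28, and that of Pgam2 to Pgam1 by -1.39, -0.76 and -0.98. The exact two-sided sign-flip test gave p = 0.25 for each of the 6, the smallest that 3 pairs allow. This pairing of the ratios was added after the data were seen. Among the non-muscle marker lists, only that of osteoclasts and macrophages moved 1 way in the same pairs of mice. The erythroid, neutrophil, osteoblast and osteocyte, adipocyte, B cell and endothelial lists had mixed directions, as the erythroid share with 0.304, 1.41 and 7.60 times. All 10 osteoclast and macrophage markers were present in every library, and together they held 0.030, 0.002 and 0.007% of counts in NGT, 0.130, 0.014 and 0.032% in T1D and 0.018, 0.006 and 0.048% in Lira mice. Their share was thus 4.26, 5.82 and 4.27 times higher in the T1D mouse at numbers 1 to 3, although the groups overlapped, and the muscle marker share was lower at all 3 numbers. The part of osteoclast and macrophage RNA in the ratios was not tested.

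**Figure D3:**
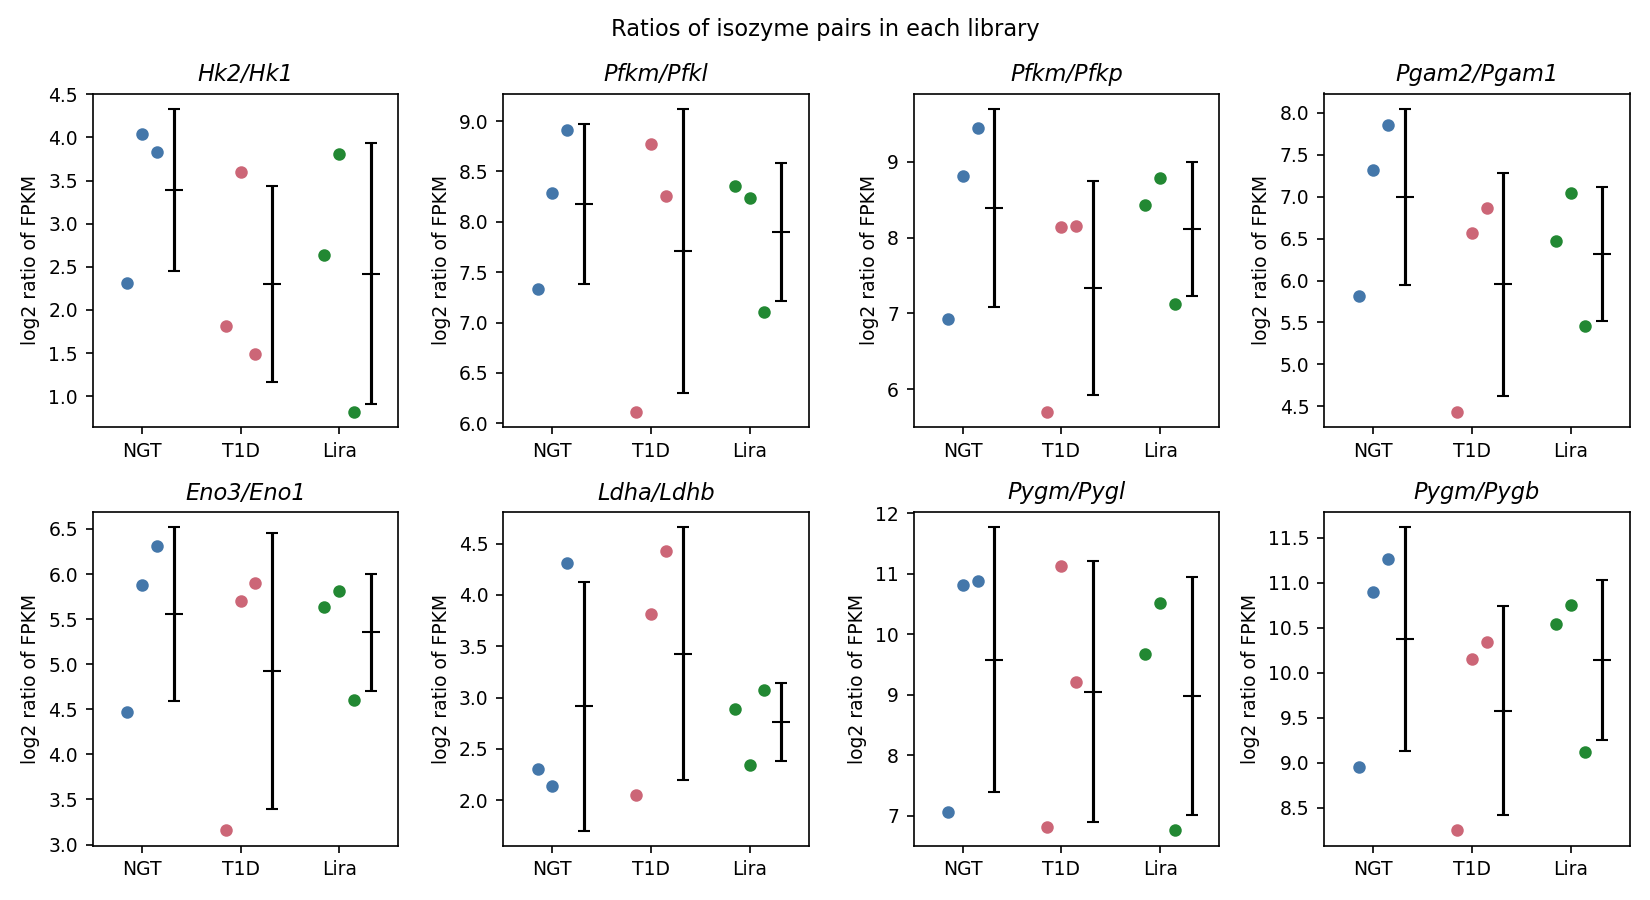
log2 ratio of the FPKM values of 8 isozyme pairs in each library, muscle form over other form (for Ldha/Ldhb, the lactate-forming type over the heart type); points are mice 1 to 3 from left to right, bars the mean and SD of 3 mice. NGT 1, T1D 1 and Lira 3 are the lowest of their group in 6 of the panels, and the groups overlap in all.

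For differences between groups, CPM (counts relative to library depth, without a correction for length and scaled by TMM) were used, and every gene was tested with edgeR's quasi-likelihood test over all 9 libraries, with Benjamini-Hochberg adjustment over the 13960 genes. The first comparison asked how diabetes altered the tibia. Between T1D and NGT mice, 0 of the 40 genes passed an adjusted p of 0.05 with a fold change over 2, as did 0% of all tested genes, and the lowest adjusted p of the list was 0.977. With limma 0 of the 40 were called. DESeq2 gave an adjusted p to only 1235 genes, 27 of the 40 among them, and called 0 of these 27. Pfkfb1 was among the 13 without an adjusted p, so that DESeq2 could not call it. At an unadjusted p under 0.05, edgeR had 1 of 40 genes, lower in T1D, where 3.95% of all genes reached that level. With the replicate number as a block, since equal numbers in NGT and T1D mice deviated together, 4 of 40 genes reached it, against 5.39% of all genes in the same fit, with Aldoc higher and Pfkfb1, Hk2 and Gys1 lower in T1D, all with an adjusted p of at least 0.865. In 4 of 40 genes the T1D mice lay below all NGT mice, against 5.08% of all tested genes, and in 0 of 40 above them, against 3.52%.

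Pfkfb1, the bifunctional enzyme of liver and muscle that sets the level of fructose 2,6-bisphosphate, the activator of phosphofructokinase, was the gene at p under 0.05. It measured 54.7, 94.9 and 73.2 CPM in NGT, 29.5, 46.0 and 37.8 in T1D and 110, 76.9 and 44.4 in Lira mice. The 3 T1D mice lay below the 3 NGT mice, and on this scale the Lira mice overlapped both. In FPKM all Lira mice (58.6, 39.9 and 29.1) lay above all T1D mice (21.1, 26.5 and 20.0). The log2 difference of T1D from NGT was -0.97 (SE 0.345, adjusted p = 0.977, edgeR). It was -0.85 with the muscle covariate and between -1.15 and -0.76 in the 14 other fits. In 11 of these fits Pfkfb1 kept an unadjusted p under 0.05. It did not without NGT mouse 2 (-0.76), T1D mouse 1 (-0.83) or T1D mouse 3 (-0.97).
Its paralog Pfkfb3, the inducible form with high kinase activity, went the other way in its means. It measured 129.5, 159 and 61.8 CPM in NGT, 99.5, 291 and 705 in T1D and 835, 195 and 201 in Lira mice. T1D mice 2 and 3 exceeded all NGT mice and T1D mouse 1 did not. The log2 difference was 1.64 (SE 0.804, adjusted p = 0.977, edgeR), and it was 0.74 (SE 0.764) without T1D mouse 3.

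Hk2, the insulin-responsive hexokinase that traps glucose in the muscle cell, measured 230, 340 and 244 CPM in NGT, 178, 211 and 128 in T1D and 240, 308 and 162 in Lira mice. On this scale all T1D mice lay below the NGT mice, although in FPKM T1D mouse 1 (39.9) exceeded NGT mouse 3 (39.2). The log2 difference was -0.65 (SE 0.293, adjusted p = 0.977, edgeR), -0.67 (SE 0.190, adjusted p = 0.865) with the block and -0.56 (SE 0.283, adjusted p = 0.981) with the muscle covariate.
Gys1, muscle glycogen synthase, measured 505, 788 and 586 CPM in NGT, 401.5, 459 and 364 in T1D and 653.5, 909 and 420.5 in Lira mice. The T1D mice again lay below the NGT mice and below 2 of the 3 Lira mice. The log2 difference was -0.62 (SE 0.305, adjusted p = 0.977, edgeR) and -0.60 (SE 0.240, adjusted p = 0.865) with the block.
Ppp1r3c, a scaffold that brings protein phosphatase 1 to glycogen and so activates glycogen synthase, measured 723, 1258 and 2256 CPM in NGT, 573, 973 and 566 in T1D and 1828, 1407 and 979 in Lira mice. T1D mouse 2 exceeded NGT mouse 1, so these groups overlapped. The log2 difference was -1.005 (SE 0.449, adjusted p = 0.977, edgeR). It ran from -1.32 without NGT mouse 1 to -0.49 without NGT mouse 3, the library with the highest value, over the 14 other fits.
Pdha1, the catalytic alpha subunit of pyruvate dehydrogenase, had means of 530 CPM ± 114 in T1D and 731 CPM ± 107 in NGT mice (SD, n = 3). All T1D mice lay below the NGT mice, and the log2 difference was -0.46 (SE 0.273, adjusted p = 0.977, edgeR). It was -0.30 without T1D mouse 1.
Fbp2, muscle fructose bisphosphatase, which runs the phosphofructokinase step backwards, measured 37.2, 73.3 and 91.4 CPM in NGT, 31.4, 127 and 257 in T1D and 92.7, 73.8 and 49.0 in Lira mice. The T1D mice held both the lowest and the highest value. The log2 difference was 1.04 (SE 0.653, adjusted p = 0.977, edgeR), 1.51 (SE 0.448) without T1D mouse 1, where the unadjusted p was under 0.05 and the adjusted p near 1, and 0.24 without T1D mouse 3.

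**Figure D4:**
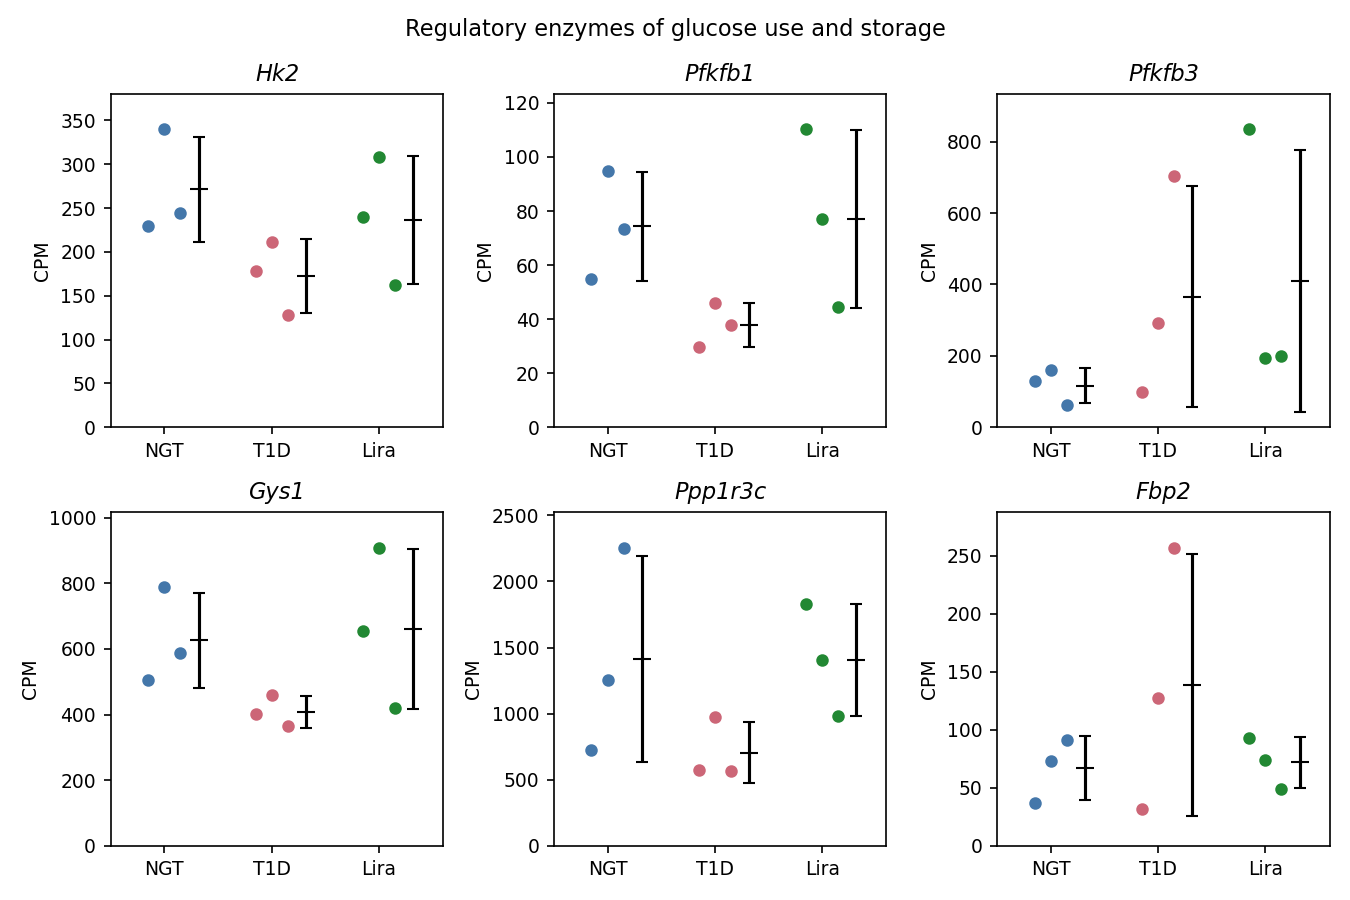
CPM of 6 regulatory genes in each mouse; points are mice 1 to 3 from left to right and bars the mean and SD of 3 mice. In Hk2, Pfkfb1 and Gys1 the T1D mice lie below the NGT mice, in Ppp1r3c below the Lira mice, and in Pfkfb3 the Lira mice lie above the NGT mice.

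By role, the median log2 difference of T1D from NGT was 0.04 for the 11 genes of upper glycolysis, -0.07 for the 7 of lower glycolysis, -0.37 for the 5 of pyruvate and lactate, 0.31 for the 3 of side branches, -0.24 for the 8 of glycogen synthesis and -0.15 for the 6 of glycogen breakdown. It was -0.10 over all 40 genes and 0.02 over all tested genes. With 1 mouse left out, the medians ran from -0.22 to 0.11 in upper glycolysis, from -0.38 to 0.14 in lower glycolysis, from -0.06 (without NGT mouse 2) to 0.75 in the branches and from -0.45 to -0.02 (without T1D mouse 1) in glycogen breakdown. All 5 genes of pyruvate and lactate metabolism were below 0, from -0.69 for Ldhb to -0.09 for Ldha, with the kinase Pdk1, which switches pyruvate dehydrogenase off, at -0.37 and the lactate exporter Slc16a3 at -0.19. None of the 5 reached an unadjusted p under 0.05. Without NGT mouse 3 or without T1D mouse 1, 2 of the 5 were above 0, and without NGT mouse 2 their median was -0.21. In glycogen synthesis 7 of 8 were below 0, with Ugp2, which makes UDP-glucose, at -0.38, the branching enzyme Gbe1 at -0.33, the muscle scaffold Ppp1r3a at -0.11 and the primer protein glycogenin, Gyg, at -0.07. Without T1D mouse 1 their median was -0.14, with 3 of 8 above 0. The list holds a pair of phosphoglucomutase genes, which link glucose 6-phosphate to glycogen. The row named Pgm2 in the table, with 388 FPKM, carries the gene number that RefSeq calls Pgm1, and the row named Pgm1, with 3.26 FPKM, the number RefSeq calls Pgm2. The abundant row had a log2 difference of -0.16 and the other of 0.40, and both turned sign without T1D mouse 1, to 0.12 and -0.03. Ldha, Slc16a3, Gyg and Ppp1r3a also turned sign without T1D mouse 1, to 0.17, 0.08, 0.08 and 0.16. Ldha and Slc16a3 did so without NGT mouse 3 as well (0.18 and 0.13), the abundant Pgm2 row too (0.08), and Gyg without NGT mouse 2 (0.12). Gbe1 was -0.04 without T1D mouse 3, Pdk1 -0.14 and Ldhb -0.21 without NGT mouse 2, and Ugp2 -0.24 without T1D mouse 1. Other fits moved them away from 0, to as low as -0.52 for Gbe1, -0.55 for Pdk1, -1.20 for Ldhb and -0.64 for Ugp2. Slc16a3 reached -0.69.
Among the phosphorylase kinase subunits, which switch phosphorylase on, the muscle alpha subunit Phka1 had -0.70 (SE 0.434), the muscle gamma subunit Phkg1 -0.42 and the beta subunit Phkb -0.04. Without T1D mouse 1 they were -0.38, -0.07 and 0.36, and without NGT mouse 3 they were -0.45, -0.07 and 0.22. Without T1D mouse 2, Phka1 was -1.14 and Phkg1 -0.77. Among the other genes of glycolysis Gpi1, the isomerase of its opening steps, had 0.00, and in the branches G6pdx, which opens the pentose phosphate pathway, had 0.31 and Gpd1, which makes glycerol 3-phosphate, -0.06. These 3 values had no stable sign, as G6pdx ran from -0.58 without T1D mouse 1 to 1.68 without NGT mouse 1, Gpd1 from -0.39 without T1D mouse 3 to 0.26 without T1D mouse 1, and Gpi1 from -0.22 without T1D mouse 3 to 0.22 without T1D mouse 1.
The 8 muscle isozymes had a median of -0.31 with 7 below 0, and the 8 other isozymes a median of 0.50 with 8 above 0, and none of the 16 reached p under 0.05. The osteoclast and macrophage markers moved with them, with a mean share of 0.059% ± 0.062 in T1D and 0.013% ± 0.015 in NGT mice (SD, n = 3), and their part in these medians was not tested. With the muscle covariate the medians were -0.25 and 0.37, with 7 below and 8 above 0, and that of all 40 genes was -0.05. These medians moved with single libraries. Without T1D mouse 1 the medians were -0.02 and -0.04, with 4 muscle isozymes below 0 and 4 above, and 3 of 7 tested other isozymes above 0. Without NGT mouse 3 they were -0.04 and 0.27, and without NGT mouse 1 they were -0.54 and 1.01. With library size in place of TMM they were -0.22 and 0.57, and the median of lower glycolysis was 0.00.

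The second comparison asked what liraglutide altered in diabetic mice. Between Lira and T1D mice, 0 of the 40 genes and 0% of all genes passed both thresholds with edgeR, and the lowest adjusted p was 0.978. DESeq2 and limma also called 0 of the 40. At an unadjusted p under 0.05 edgeR had 2 of 40 genes, Pfkfb1 and Gys1, both higher in Lira, against 3.33% of all genes. In CPM, all Lira mice lay above all T1D mice in 1 of 40 genes, Ppp1r3c, against 3.74% of all genes. They lay below them in 0 of 40, against 3.4%.
Because this comparison and the first share the T1D mice, a gene that is low in these 3 mice enters both, and the values are given side by side only. Pfkfb1 had a log2 difference of 1.03 (SE 0.345, adjusted p = 0.978, edgeR) of Lira from T1D and -0.97 of T1D from NGT. The unadjusted p was under 0.05 in 12 of 14 other fits, and not without T1D mouse 1 (0.88) or Lira mouse 1 (0.68). Gys1 had 0.70 (SE 0.305) and -0.62, with an unadjusted p under 0.05 for the first in 5 of 14 other fits and a value of 0.40 without Lira mouse 2. Ppp1r3c had 1.00 (SE 0.449) and -1.005, with group means of 1405 CPM ± 425 in Lira, 704 CPM ± 233 in T1D and 1412 CPM ± 778 in NGT mice (SD, n = 3). Fbp2 had -0.95 (SE 0.652) and 1.04, Hk2 had 0.45 (SE 0.293) and -0.65, Ldhb had 0.66 (SE 0.505) and -0.69, and Pfkfb3 had 0.17 (SE 0.783) and 1.64. Several of these values for Lira against T1D rested on single mice. That of Fbp2 was -0.14 without T1D mouse 3, and that of Hk2 was 0.22 without Lira mouse 2 and 0.28 without T1D mouse 3. That of Pfkfb3 ran from -0.89 without Lira mouse 1 to 1.07 without T1D mouse 3. With the muscle covariate Pfkfb1 had 0.85, Gys1 0.51, Ppp1r3c 0.94 and Hk2 0.31 for Lira against T1D. Over the 14 other fits Ldhb ran from 0.28 to 1.38 for Lira against T1D and from -1.20 to -0.21 for T1D against NGT. The adjusted p of each was 0.978 or more for Lira against T1D and 0.977 for T1D against NGT.

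The median log2 difference of Lira from T1D was 0.13 over the 40 genes, 27 of them above 0, and 0.04 over all tested genes. It was 0.13 in upper and 0.05 in lower glycolysis, 0.36 in pyruvate and lactate, 0.05 in the branches, 0.18 in glycogen synthesis and 0.22 in glycogen breakdown. Without T1D mouse 1 the median of glycogen breakdown was 0.01 and that of pyruvate and lactate 0.19, and the latter was 0.16 without Lira mouse 2 and 0.55 without Lira mouse 3. That of upper glycolysis ran from 0.00, with 5 genes above and 6 below 0, without Lira mouse 1 to 0.31 without T1D mouse 3. That of glycogen synthesis was 0.06 without Lira mouse 1, 0.37 without T1D mouse 2 and 0.42 without Lira mouse 3, and that of lower glycolysis ran from -0.14 without Lira mouse 2 to 0.26 without T1D mouse 3. The median of the branches was below 0 whichever mouse was left out, and lowest, at -0.73, without Lira mouse 3. The median of lower glycolysis was -0.02 with library size in place of TMM. The muscle isozymes had a median of 0.22 with 7 of 8 above 0 and the other isozymes -0.34 with 6 of 8 below 0. Without T1D mouse 1 both turned, to -0.06 with 6 of 8 muscle isozymes below 0 and to 0.37 with 7 of 7 tested other isozymes above 0. Without Lira mouse 1 the muscle isozymes had 0.08, and without Lira mouse 2 they had 0.12 and the other isozymes -0.19. Other mice moved them away from 0. Without Lira mouse 3 the medians were 0.40 and -0.69, with 8 of 8 other isozymes below 0. The muscle isozymes had 0.37 without T1D mouse 3, and the other isozymes -0.57 without T1D mouse 2. With the muscle covariate the muscle isozymes had 0.06, with 5 of 8 above 0, and the other isozymes -0.08, with 5 of 8 below 0. The same covariate left a median of 0.03 over the 40 genes, 0.06 in upper glycolysis, -0.08 in lower glycolysis, 0.22 in pyruvate and lactate, -0.08 in the branches, 0.13 in glycogen synthesis and 0.06 in glycogen breakdown. The mean share of the osteoclast and macrophage markers was 0.024% ± 0.021 in Lira mice (SD, n = 3), against 0.059% in T1D. Further genes of glycogen storage had log2 differences within their standard errors of 0, as Ugp2 at 0.13 and Gyg at -0.16, or beyond them without reaching p under 0.05, as Gbe1 at 0.50 (SE 0.351). Gbe1 was 0.21 without T1D mouse 3 and Ugp2 -0.11 without Lira mouse 2.

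Between Lira and NGT mice, 0 of the 40 genes and 0% of all genes passed both thresholds with edgeR, DESeq2 called 0 of the 40, and 0 of 40 reached an unadjusted p under 0.05 with edgeR, against 0.781% of all genes. The lowest adjusted p was 0.999. In 1 of 40 genes, Pfkfb3, all Lira mice lay above all NGT mice, against 2.49% of all genes, and in 0 of 40 below them, against 1.78%. The log2 difference of Pfkfb3 was 1.81 (SE 0.808, adjusted p = 0.999, edgeR), and it was 0.76 (SE 0.720) without Lira mouse 1, whose 835 CPM was the highest value of the 9 libraries. The other genes of the list had differences from -0.27 for Phka1 to 0.86 for Hk1. For Ppp1r3c, Gys1, Pfkfb1 and Hk2 the log2 differences were -0.01, 0.08, 0.06 and -0.20, each smaller than its standard error (0.444, 0.304, 0.341 and 0.292). These small values depended on single mice. Ppp1r3c ran from -0.32 without NGT mouse 1 to 0.50 (SE 0.420) without NGT mouse 3. Pfkfb1 ran from -0.29 without Lira mouse 1 to 0.33 (SE 0.293) without Lira mouse 3. Gys1 ran from -0.22 without Lira mouse 2 to 0.32 (SE 0.270) without Lira mouse 3, and Hk2 from -0.44 (SE 0.306) without Lira mouse 2 to 0.01 without Lira mouse 3. Hk1 was 0.11 without Lira mouse 3 and reached 1.43 in another fit. Phka1 was -0.02 without NGT mouse 3 and reached -0.52 in another fit. With the muscle covariate Pfkfb3 had 1.70, and the median of the 40 genes was -0.10, where it was -0.01 without the covariate. With 1 mouse left out this median ran from -0.21 without NGT mouse 1 to 0.13 without NGT mouse 3. The muscle isozymes had a median of -0.10 with 6 of 8 below 0, and the other isozymes 0.31 with 8 of 8 above 0. The muscle isozymes ran from -0.33 without NGT mouse 1 to 0.14, with 7 of 8 above 0, without NGT mouse 3. With the muscle covariate the medians were -0.20 and 0.43. Of the other isozymes, only Aldoc, Hk1 and Pgam1 stayed above 0 in every fit.

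**Figure D5:**
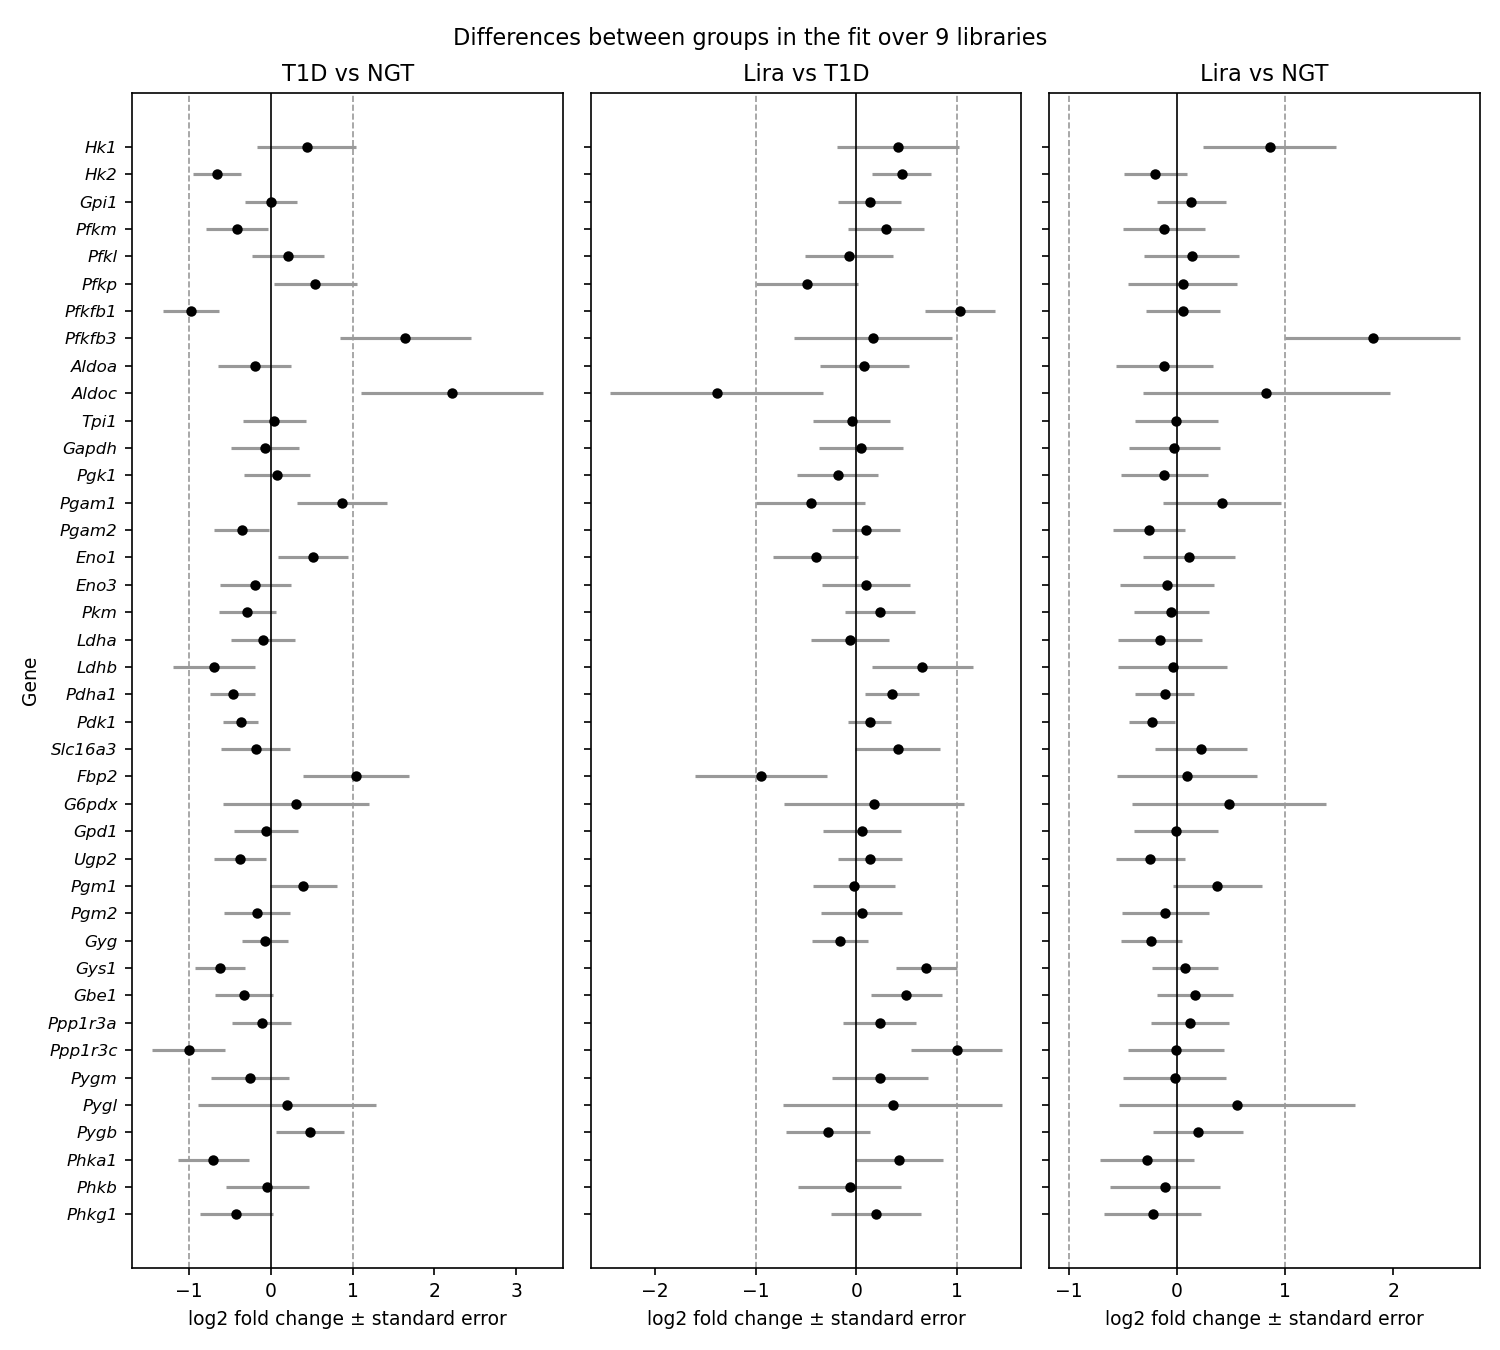
log2 fold change with its standard error for each of the 40 genes in the 3 comparisons, with dashed lines at a fold change of 2. Pfkfb1 and Ppp1r3c sit near -1 in T1D against NGT and near 1 in Lira against T1D, and the widest error bars belong to Aldoc and Pygl.

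The longest distances between single libraries were in Pygl, whose highest FPKM was 18.7 times its lowest, in Pfkfb3 with 14.0 times and in G6pdx with 8.97 times, and the shortest in Gpi1 with 1.41 times, Gapdh with 1.48 times and Pkm with 1.49 times. Aldoc, listed at 0 in 1 library, was left out of this ranking. G6pdx measured 20.2, 2.58 and 2.66 FPKM in NGT, 22.4, 3.27 and 6.21 in T1D and 6.13, 4.01 and 23.1 in Lira mice. As with Pygl and Hk1, its high values were in NGT 1, T1D 1 and Lira 3, the mice with the least muscle marker RNA. Counts of 13 of the 40 genes, Aldoa, Gapdh, Pygm, Pfkfb3 and Pdha1 among them, were not whole numbers in all 9 libraries (more than 0.005 from the nearest whole number). Reads shared with other features may have been split there, which was not tested, and these values are taken as less certain. Strand was not stated for the counting, so antisense transcripts cannot be told apart from the genes.

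The pathway was also read in 62 further genes of glucose and glycogen metabolism, of which 58 were tested. At an unadjusted p under 0.05, 1 was lower and 0 higher in T1D than in NGT mice, 1 was lower and 0 higher in Lira than in T1D mice, and 0 reached that level between Lira and NGT mice. The shares over all genes were 3.95, 3.33 and 0.781%, so that 1 of 58 was not above them and both genes are given as values only. Dlat, the E2 subunit of the same pyruvate dehydrogenase complex as Pdha1, measured 251, 289 and 272 CPM in NGT, 164, 197 and 174 in T1D and 234, 352 and 178 in Lira mice. The T1D mice lay below the NGT mice, with a log2 difference of -0.60 (SE 0.246, adjusted p = 0.977, edgeR), which ran from -0.68 to -0.55 with 1 mouse left out and then kept an unadjusted p under 0.05 only without T1D mouse 2. Eno2, the neuronal enolase, measured 1.71, 1.08 and 1.19 CPM in NGT, 3.15, 2.03 and 1.47 in T1D and 1.07, 0.62 and 1.09 in Lira mice, with a log2 difference of Lira from T1D of -1.25 (SE 0.436, adjusted p = 0.978, edgeR), which was -0.90 without T1D mouse 1. Its unadjusted p was not under 0.05 without T1D mouse 1, without Lira mouse 2 or without the 3 libraries of least muscle marker RNA.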

How the data were processed

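Tibial RNA was sequenced in 9 libraries, each from a different mouse, with 3 NGT, 3 T1D and 3 Lira libraries. The authors deposited expected counts per gene, which are not normalized and of which 30.2% are not whole numbers (more than 0.005 from one), and FPKM values, scaled by the authors for gene length and library total. The FPKM unit was inferred from the ratio of the deposited counts to these values. The submitters' processing notes name the build mm9, and the aligner and counter are not given in the sources used here, so no coordinates were taken from the table. Counts were rounded, and a gene was kept where 3 or more libraries had 10 or more counts (13960 of 18272). In R 4.3.3, edgeR 4.0.16 (TMM, glmQLFit and glmQLFTest) was fitted to the means of 3 groups over 9 libraries. DEGs had an adjusted p under 0.05 and a fold change over 2. Standard errors came from the F statistic. The comparisons share mice. P-values measure the spread between these 3 mice per group. Alternatives were DESeq2 1.42.0, limma 3.58.1 on log2(FPKM + 1), library size without TMM, no filter and only the groups compared. Others were a replicate block, the mean log2 CPM of the muscle markers as a covariate and leaving out each mouse. A fit without NGT 1, T1D 1 and Lira 3, the libraries with the least muscle marker RNA, was chosen after seeing the data. Code was tested on simulated data.

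NGT and T1D mice with equal replicate numbers deviated together (r = 0.583, 0.647 and 0.283 across genes), so the numbers were taken to pair them. The labels state no such pairing, and in both groups mouse 1 had the least muscle marker RNA. The values were -0.244, 0.615 and 0.271 for Lira and T1D and -0.173, 0.727 and 0.0125 for Lira and NGT, which were not paired. The members, gene lists, isozyme pairs and motifs were chosen with earlier results of these data known. Values of every mouse were printed for genes with an unadjusted p under 0.05, the 10 most abundant, the 3 largest changes of a comparison at 5 CPM or more and both members of each pair. Other values printed by mouse (G6pdx) or chosen for their groups not overlapping (Pdha1) were picked after they were seen. The wider list covers 62 further enzymes and regulators of glucose and glycogen metabolism. Marker lists for muscle, erythroid cells, neutrophils, osteoblasts and osteocytes, osteoclasts and macrophages, adipocytes, B cells and endothelium were written by hand. Adipocyte markers held 0.075 to 0.257%, B cell markers 0.002 to 0.025% and endothelial markers 0.025 to 0.050%. A result on 1 marker gene is not reported here.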

Additional observations from a re-analysis of the deposited data

How the results depend on the processing

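No gene of the list passed the DEG thresholds in any fit, although DESeq2 gave no adjusted p for 13 of the 40 in T1D against NGT, and the lowest adjusted p of any fit was 0.314, 0.745 and 0.882 in T1D against NGT, Lira against T1D and Lira against NGT. The number of genes at an unadjusted p under 0.05 moved more, and so did the share of all tested genes, given in brackets. In T1D against NGT it was 1 of 40 (3.95%), and 5 with DESeq2 (5.01%), 2 without TMM (3.4%), 3 with only the 2 groups compared (4.02%), 4 with the replicate block (5.39%), 2 with the muscle covariate (4.05%) and 4 with limma (3.12%). It was 0 to 5 without 1 mouse, with 0 without NGT mouse 2 (1.61%) or T1D mouse 3 (5.0%), 2 without T1D mouse 1 (3.0%), 3 without NGT mouse 1 (7.32%) and 5 without T1D mouse 2 (5.19%), and 7 (7.68%) without the 3 libraries of least muscle RNA, an alternative chosen after seeing the data (higher Fbp2, Pgam1 and Pfkfb3, lower Pfkfb1, Ppp1r3c, Hk2 and Gys1). In Lira against T1D it was 2 (3.33%), and 1 with the muscle covariate (2.24%), 3 with DESeq2 (4.46%) and with the replicate block (3.63%), 0 to 4 without 1 mouse and 5 without those 3 libraries (5.15%). It was 0 without Lira mouse 1 (1.83%), 1 without Lira mouse 2 (3.12%), T1D mouse 1 (2.36%) or T1D mouse 3 (5.1%) and 4 without Lira mouse 3 (5.35%). In Lira against NGT it was 0 (0.781%), and 1 (Pfkfb3) with DESeq2 (1.11%), without TMM (0.723%), without the low-count filter (0.9%) and with only the 2 groups compared (0.87%). There it was 0 to 1 without 1 mouse (1 without Lira mouse 2, 3.2%, or Lira mouse 3, 0.952%) and 2 without those 3 libraries (2.59%), and the replicate block left it at 0. The median of the 40 genes in T1D against NGT ranged from -0.37 without T1D mouse 3 to 0.02 without NGT mouse 3, in Lira against T1D from 0.03 to 0.30 and in Lira against NGT from -0.21 without NGT mouse 1 to 0.13 without NGT mouse 3. The sign of the log2 difference held in every fit for 20, 14 and 8 of the 40 genes in the 3 comparisons. Depth limits Aldoc, which has a count of 0 in 1 library. The cause of these shifts was not tested.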
